A study of Mus musculus with 30 samples.

Results

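Trim71, Lin28a and Igf2bp1 encode RNA-binding proteins of early embryonic cells. Dgcr8, Drosha, Xpo5, Dicer1 and Ago2 encode the proteins that make and use microRNAs. These 8 of the 18193 genes named on the array were followed across gradient pools and total RNA of mouse day-5 embryoid bodies (EB) and undifferentiated embryonic stem cells (ESC). Every probe set annotated to exactly 1 of their symbols was taken, which gave 23 of the 45101 probe sets on the array: 2 each for Trim71, Lin28a, Xpo5 and Dicer1, 3 for Drosha, and 4 each for Dgcr8, Ago2 and Igf2bp1. A filter that removed the dimmest 40% of the array left 21 of the 23. The others, Dgcr8 1446169_at and Drosha 1438440_at, lay at the lower limit of the deposited values on 18 and 15 of 24 pool arrays. The genes were picked by name with earlier results of these data known, and which values were looked at is not recorded. The adjusted p-values below therefore place a probe set among all probe sets of its fit and are not independent evidence for the choice of genes.

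The EB were aggregates of the R1 line grown for 5 days after withdrawal of LIF, the cytokine that holds mouse ESC in the undifferentiated state, and the ESC were R1 cells kept in LIF. Cells of both states received cycloheximide (150 ug/ml, 15 min), which halts ribosomes on mRNA. Cytoplasmic lysate was spread on a sucrose gradient, the fractions were combined into pools 1 to 4, and RNA of each pool and of whole lysate was hybridised to Affymetrix arrays. Each state had 3 biological replicates, hence 12 EB pool arrays and 3 EB total RNA arrays against 12 ESC pool arrays and 3 ESC total RNA arrays. All cells were of 1 line, and the labels do not say from which end of the gradient pool 1 came, so pools are named by number only. Each array was made from 2.5 ug of RNA, so a signal is a level within the RNA of that pool.

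MicroRNAs are cut from hairpins in long nuclear transcripts by the microprocessor, in which Drosha is the nuclease and Dgcr8 its RNA-binding partner. Exportin-5 (Xpo5) carries the hairpin to the cytoplasm, Dicer1 trims it to a duplex, and Ago2 holds the mature strand and silences matching mRNAs. The let-7 family is abundant in differentiated cells and scarce in ESC, where Lin28a binds let-7 hairpins and blocks their maturation, while the mRNAs of Trim71, Lin28a and Igf2bp1 are known let-7 targets.

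The arrays measured mRNAs and not mature microRNAs. The let-7 sequences are shown because this family joins the genes: 8 mouse let-7 5p microRNAs in RefSeq (GRCm38.p6) shared 1 seed, bases 2 to 8 from the 5′ end, set in capitals.
let-7a-5p: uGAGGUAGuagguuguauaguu
let-7b-5p: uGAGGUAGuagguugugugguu
let-7c-5p: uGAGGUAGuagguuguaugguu
let-7d-5p: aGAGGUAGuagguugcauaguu
let-7e-5p: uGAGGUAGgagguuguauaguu
let-7f-5p: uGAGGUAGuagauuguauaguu
let-7g-5p: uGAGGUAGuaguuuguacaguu
let-7i-5p: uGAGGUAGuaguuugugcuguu
Outside the seed these microRNAs differ from one another by a few bases.

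Lin28a is known to contact the letters GGAG in the loop region of let-7 hairpins. The let-7g hairpin of RefSeq, at chr9:106178840-106178927 on the plus strand of GRCm38.p6, is shown with GGAG in capitals.
let-7g hairpin: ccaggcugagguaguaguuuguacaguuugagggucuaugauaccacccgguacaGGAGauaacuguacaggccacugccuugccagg
The letters GGAG, searched on the strand of the hairpin only, occurred in 9 of 11 let-7 hairpins (81.8%) and in 447 of all 1005 mouse hairpins (44.5%), so the letters alone do not single out the family.

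Hairpins annotated in RefSeq lay within 3 of the 8 genes: Mir1306 and Gm24572 in Dgcr8, Mir693 in Xpo5 and Mir3063 in Igf2bp1. The microprocessor is known to cut within the Dgcr8 transcript itself. The arrays did not measure which hairpin is cut. Gm24572, at chr16:18284550-18284637 on the minus strand, is not shown. The Mir1306 hairpin, at chr16:18284239-18284317 on the minus strand of GRCm38.p6 inside Dgcr8 (chr16:18253948-18289251), is shown as an example with its mature arms in capitals.
Mir1306 hairpin: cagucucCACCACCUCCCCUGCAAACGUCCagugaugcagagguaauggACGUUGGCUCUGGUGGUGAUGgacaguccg
The position of the array's probes relative to this hairpin was not analysed here.

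The deposited values were log2 signals that carried array-wide shifts. Mean linear signal per array ran from 302.1 to 376.4 in EB total RNA, against 151.0 to 156.4 in ESC total RNA, and the median probe set was 0.86 higher in EB total RNA on the log2(signal + 32) scale, which adds 32 to the linear signal. Differences are therefore given first relative to all genes, after quantile normalization of log2(signal + 32), and then on the deposited scale without normalization. The lowest value of a pool array was the same in all 8 EB and ESC pool arrays of one replicate number, 3.8, 2.93 and 3.35 for numbers 1, 2 and 3. Where a fit with the replicate number as a block changed a call, its adjusted p is given beside it. The ratio of the 3′ to the 5′ control probe sets of Actb, which is larger where less of the 5′ end of a transcript is labelled, was lower in EB than in ESC without overlap in all 4 pools and in total RNA: 2.06 to 2.50 in EB total RNA, against 2.77 to 3.31 in ESC total RNA (log2). The lowest of 12 pluripotency markers, Tbx3, was at 9.41 log2 in EB total RNA and 8.17 in ESC total RNA (medians), and the summed signal of the 12 over the array mean was 188.8 to 195.5 in EB and 201.4 to 211.1 in ESC. Endoderm markers summed to 2.21 to 2.35 in EB and 0.557 to 0.863 in ESC, with 2 of 8 under 5 log2 in EB and 8 in ESC. Primitive streak and mesoderm markers summed to 0.875 to 1.27 in EB and 0.589 to 0.630 in ESC. Of 5 on the array, 3 were under 5 log2 in EB and 4 in ESC. Both sums were higher in EB without overlap. Neural markers summed to 1.36 to 1.55 in EB and 1.33 to 1.78 in ESC. Feeder-fibroblast markers summed to 0.712 to 0.927 in EB and 0.901 to 1.23 in ESC, with 6 of 8 under 5 log2 in both states. Relative to all genes, 4 of 7 tested endoderm markers and 1 of 4 streak and mesoderm markers were called higher in EB total RNA. Of 12 pluripotency markers 2 were called higher and 2 lower, and 2 of 5 neural markers were called lower. Among all genes, by 1 probe set each, 4.52% were called higher and 4.17% lower. The part of these cell types and of the Actb ratio in the results was not tested. In such bulk samples fewer cells of a type and less RNA per cell cannot be told apart.

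**Figure D1:**
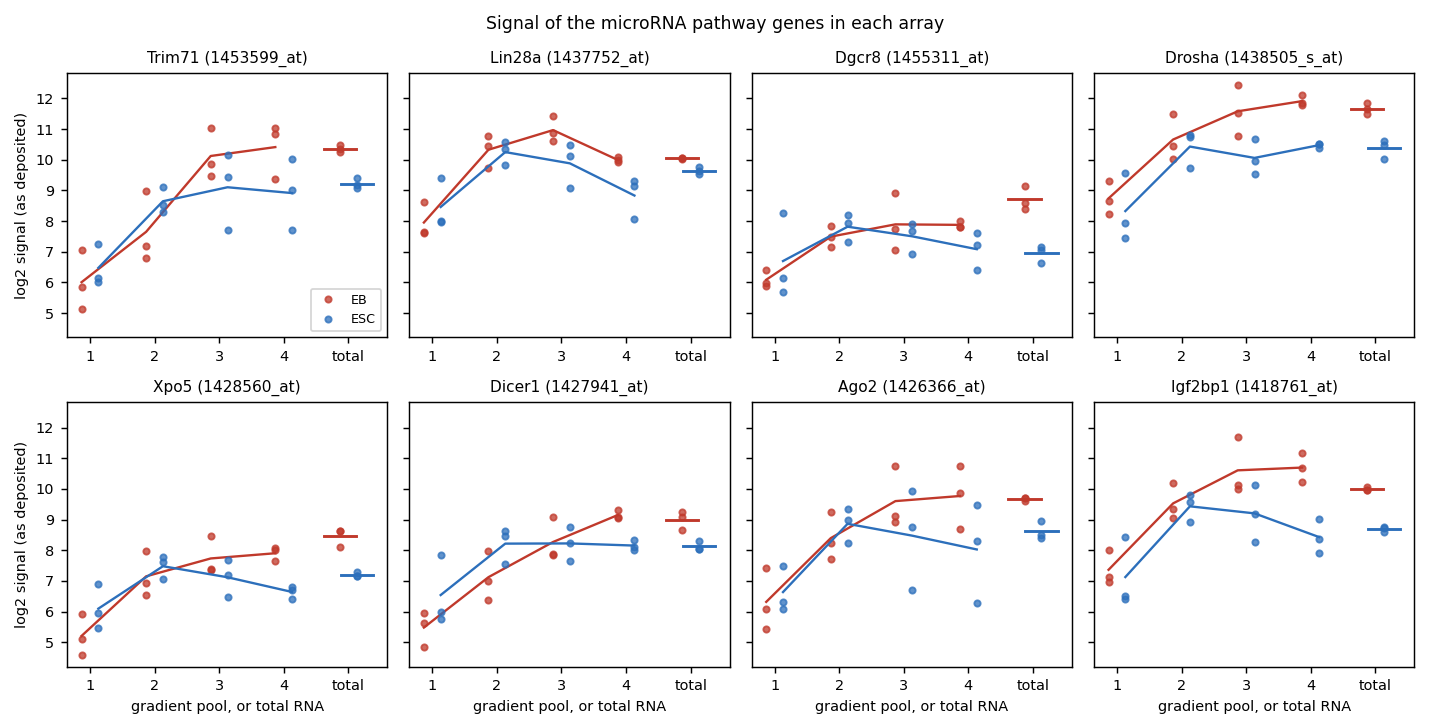
Deposited log2 signal (vertical axis) of the probe set with the highest mean of each gene, in gradient pools 1 to 4 and in total RNA; each point is 1 array, lines join the means of the 3 replicates of EB (red) and ESC (blue), and bars mark the means in total RNA. On this scale Drosha had its highest gradient mean in pool 4 of both states, while Lin28a had it in pool 3 of EB and in pool 2 of ESC; relative to all genes Lin28a was highest in pool 3 of both.

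Trim71 encodes a TRIM-NHL ubiquitin ligase and mRNA repressor of the early embryo, at chr9:114511268-114564369. Its probe set with the highest mean, 1453599_at, read 10.35, 10.24 and 10.49 in EB total RNA, against 9.18, 9.39 and 9.07 in ESC total RNA (log2, deposited). The 3 EB arrays lay above the 3 ESC arrays, by 1.11 ± 0.16 (SE, log2(signal + 32), limma adjusted p = 0.000205). Relative to all genes the difference was -0.12 ± 0.13 (limma adjusted p = 0.608), beside a deposited shift of 0.86 for the median probe set; the higher signal of Trim71 was thus called on the deposited scale and not after normalization. The other Trim71 probe set, 1456673_at, had -0.23 ± 0.13 (limma adjusted p = 0.292).

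Across the EB gradient Trim71 1453599_at read 7.06, 5.84 and 5.12 in pool 1, 8.97, 7.20 and 6.78 in pool 2, 11.05, 9.47 and 9.85 in pool 3, and 11.02, 9.38 and 10.84 in pool 4. Across the ESC gradient it read 7.26, 6.14 and 6.02 in pool 1, 9.10, 8.31 and 8.53 in pool 2, 10.17, 7.70 and 9.44 in pool 3, and 10.02, 9.0 and 7.72 in pool 4. In EB every array of pools 3 and 4 was above every array of pools 1 and 2, while in ESC pools 2 to 4 overlapped. The low ESC values of 7.70 (pool 3, replicate 2) and 7.72 (pool 4, replicate 3) came from arrays whose Actb 3′ to 5′ ratio, 3.59 and 3.54, was the highest of their groups, and the part of RNA quality in them was not tested.

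The pool ratio of a culture was its mean over pools 3 and 4, in log2, less its mean over pools 1 and 2. For Trim71 1453599_at it was 2.03, 1.47 and 3.29 in the EB cultures, against 2.20, 0.91 and 1.25 in the ESC cultures, relative to all genes. Both means were above 0, at 2.26 ± 0.29 in EB (limma adjusted p = 0.000104) and 1.45 ± 0.29 in ESC (limma adjusted p = 0.00354). This was the largest mean pool ratio among the 21 probe sets in EB and the second in ESC, after Drosha 1428656_at at 1.49. The difference between states, 0.81 (95% interval -0.10 to 1.72, limma adjusted p = 0.281), did not pass the test, 2 of 3 EB cultures lay within the range of the ESC cultures, and without EB replicate 3 it was 0.30.

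Trim71 1456673_at gave a smaller ratio, at 0.98, 0.67 and 0.83 in the EB cultures, against 0.30, 0.26 and 0.33 in the ESC cultures. These groups did not overlap, and the difference of 0.53 (95% interval 0.18 to 0.88) had a limma adjusted p of 0.0791. In EB this ratio was above 0 (0.83 ± 0.11, limma adjusted p = 0.000157), and in ESC it was 0.30 ± 0.11 (limma adjusted p = 0.0766). The lower ratio in ESC went with a high pool 1 signal: 9.41, 7.48 and 7.5 in ESC, against 7.09, 6.78 and 6.79 in EB. In pool 1 this probe set was lower in EB by 2.08-fold relative to all genes (-1.06 ± 0.16, limma adjusted p = 0.0176), a call lost with the replicate number as a block (limma adjusted p = 0.0762) and kept in 2 of 6 fits without 1 replicate; on the deposited scale the value was -1.08 with a limma adjusted p of 1. In pool 3 it was lower by 1.68-fold (-0.75 ± 0.12, limma adjusted p = 0.0048), kept in all 6 such fits, with the sign reversed on the deposited scale (0.58).

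Lin28a, at chr4:134003330-134019196, encodes the cold-shock and zinc-knuckle protein that blocks let-7 maturation and also binds many mRNAs. Its probe set 1437752_at read 10.07, 10.03 and 10.07 in EB total RNA, against 9.63, 9.77 and 9.54 in ESC total RNA. The deposited EB signals were higher, by 0.40 ± 0.15 (limma adjusted p = 0.0385), but by less than the median probe set of the array. Relative to all genes Lin28a was therefore lower in EB by 1.77-fold (-0.82 ± 0.12, limma adjusted p = 0.0131), a direction that reverses on the deposited scale. When each replicate was left out in turn the value stayed between -0.88 and -0.78, and 4 of 6 such fits passed the test; those without EB replicate 1 and EB replicate 3 gave -0.78 and -0.82 (limma adjusted p = 0.0552 and 0.0508). With the replicate number as a block the call was lost (limma adjusted p = 0.0621), while EB was lower within each of the 3 numbers, with EB minus ESC at -0.90, -0.76 and -0.79.

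The second Lin28a probe set, 1421749_at, did not give the same picture. It read 8.79, 8.88 and 9.19 in EB total RNA, against 7.67, 7.41 and 7.25 in ESC total RNA, and the difference relative to all genes was 0.08 ± 0.17 (limma adjusted p = 0.803). The signal of 1437752_at minus that of 1421749_at on the same array, a quantity from which any array-wide scaling drops out, was 0.88 to 1.28 in EB total RNA, against 1.96 to 2.36 in ESC total RNA. The ranges were also apart in pool 1 (1.33 to 1.62 in EB, 1.89 to 2.33 in ESC), pool 2 (0.22 to 2.16 in EB, 2.63 to 4.65 in ESC) and pool 3 (0.73 to 2.27 in EB, 2.42 to 3.51 in ESC), and overlapped in pool 4 (1.22 to 2.64 in EB, 2.18 to 3.39 in ESC). The lower Lin28a level in EB thus rested on 1 of its 2 probe sets. The Actb 3′ to 5′ ratio was lower in EB in total RNA and in every pool, pool 4 among them. Within ESC that ratio was 3.87 to 4.22 in pool 1 and 1.69 to 3.59 in pool 3, while the probe set difference was smaller in pool 1. The part of the Actb ratio was not tested.

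Lin28a was not called for a pool ratio in either state. Its 1437752_at signal was 8.63, 7.60 and 7.63 in EB pool 1, 10.78, 9.74 and 10.46 in EB pool 2, 11.42, 10.60 and 10.88 in EB pool 3, and 9.98, 10.08 and 9.93 in EB pool 4. In ESC Lin28a read 9.40, 8.0 and 7.98 in pool 1, 10.59, 9.82 and 10.34 in pool 2, 10.47, 9.07 and 10.11 in pool 3, and 9.30, 9.14 and 8.06 in pool 4. On this deposited scale the highest mean was in pool 3 in EB and in pool 2 in ESC, with the lowest in pool 1 in both states. The pool ratio relative to all genes was 0.29 ± 0.12 in EB (limma adjusted p = 0.0972) and 0.21 ± 0.12 in ESC (limma adjusted p = 0.255), and its difference was 0.08 (95% interval -0.31 to 0.46, limma adjusted p = 0.846). On the deposited scale the EB ratio was called at 1.27 and the ESC ratio was -0.01 without a call. The EB pool 2 value of 1421749_at in replicate 3, 10.24 against 9.73 and 7.58 in the other EB cultures, came from the array with the highest hybridisation controls of the series, 13.9 (log2).

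Igf2bp1, at chr11:95957163-96005944, encodes a protein that binds and stabilises mRNAs, Myc mRNA among them. Its probe set 1418761_at read 9.97, 9.95 and 10.07 in EB total RNA, against 8.58, 8.76 and 8.72 in ESC total RNA. The deposited difference was 1.25 ± 0.15 (limma adjusted p = 7.43e-05) and the one relative to all genes was -0.02 ± 0.12 (limma adjusted p = 0.951). Among the other 3 probe sets, 1455223_at was lower in EB relative to all genes (-0.54 ± 0.13, limma adjusted p = 0.048), a call that neither the replicate block (limma adjusted p = 0.11) nor any of the 6 fits without 1 replicate kept (limma adjusted p 0.0961 to 0.123) and whose sign reverses on the deposited scale (0.70). For 1459825_x_at the value was -0.52 ± 0.13 (limma adjusted p = 0.0537), and for 1449210_at it was 0.18 ± 0.16 (limma adjusted p = 0.535).

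In EB the 1418761_at signal of Igf2bp1 was 8.01, 6.96 and 7.12 in pool 1, 10.19, 9.05 and 9.35 in pool 2, 11.69, 10.01 and 10.12 in pool 3, and 11.17, 10.23 and 10.69 in pool 4. In ESC it was 8.44, 6.52 and 6.42 in pool 1, 9.79, 8.93 and 9.58 in pool 2, 10.14, 8.28 and 9.19 in pool 3, and 9.02, 8.37 and 7.90 in pool 4. The largest gap between the states lay in pool 4, where all 3 EB values were above all 3 ESC values. There Igf2bp1 1418761_at was the only probe set of the 21 that was called in the same direction on both scales, higher in EB by 1.80-fold relative to all genes (0.85 ± 0.21, limma adjusted p = 0.0362) and by 2.16 ± 0.27 on the deposited scale (limma adjusted p = 3.64e-05). The relative value ran from 0.66 to 1.03 when each replicate was left out, and passed the test in 2 of 6 such fits (limma adjusted p 0.0408 to 0.118). The other 3 Igf2bp1 probe sets differed by -0.04, 0.22 and 0.04 in pool 4 relative to all genes and were not called.

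The pool ratio of Igf2bp1 1418761_at was 1.15 ± 0.14 in EB (limma adjusted p = 5.53e-05) and 0.65 ± 0.14 in ESC (limma adjusted p = 0.00454). Without ESC replicate 1 the ESC value was 0.53 (limma adjusted p = 0.0515). The difference between states was positive for all 4 Igf2bp1 probe sets, at 0.50, 0.43, 0.77 and 0.25, and passed the test for none (limma adjusted p 0.144 to 0.44). The 95% interval for 1449210_at, 0.13 to 1.41, was the widest of the 4. Its ESC signals of 6.62 in pool 3 (replicate 2) and 6.29 in pool 4 (replicate 3) were low on the same 2 arrays that gave low Trim71 values.

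Drosha, the microprocessor nuclease, lies at chr15:12824804-12935291. Its 1438505_s_at signal in total RNA was 11.65, 11.86 and 11.48 in EB, against 10.49, 10.62 and 10.01 in ESC. The deposited difference was 1.27 ± 0.20 (limma adjusted p = 0.000281), and relative to all genes it was 0.14 ± 0.21 (limma adjusted p = 0.719). For Drosha 1428656_at the relative difference was 0.15 ± 0.12 (limma adjusted p = 0.487).

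Relative to all genes, Drosha mRNA was on average at a higher level within pools 3 and 4 than within pools 1 and 2 in both states. The 1428656_at signal was 6.72, 5.44 and 5.71 in EB pool 1, 9.36, 8.31 and 8.77 in EB pool 2, 10.48, 9.34 and 9.71 in EB pool 3, and 10.19, 10.26 and 10.15 in EB pool 4. In ESC it was 6.42, 5.08 and 5.03 in pool 1, 8.18, 7.86 and 8.37 in pool 2, 8.83, 7.95 and 8.62 in pool 3, and 8.51, 8.45 and 8.33 in pool 4. Pool 1 was the lowest in all 6 cultures. The pool ratio of this probe set was 1.47 ± 0.12 in EB (limma adjusted p = 4.18e-06) and 1.49 ± 0.12 in ESC (limma adjusted p = 1.52e-05), and that of 1438505_s_at was 1.14 ± 0.14 in each state. The difference between states was -0.01 for both probe sets, with 95% intervals of -0.39 to 0.36 for 1428656_at and -0.44 to 0.43 for 1438505_s_at.

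Dgcr8, the RNA-binding partner of Drosha, was not called for a pool ratio relative to all genes in either state. The 1455311_at signal was 6.42, 5.97 and 5.87 in EB pool 1, 7.84, 7.16 and 7.48 in EB pool 2, 8.90, 7.05 and 7.73 in EB pool 3, and 8.01, 7.80 and 7.82 in EB pool 4. In ESC it was 8.27, 5.69 and 6.13 in pool 1, 8.20, 7.31 and 7.94 in pool 2, 7.91, 6.92 and 7.68 in pool 3, and 7.62, 7.22 and 6.41 in pool 4. In EB pools 2 to 4 overlapped and lay above pool 1, and in ESC all pools overlapped. The pool ratio relative to all genes was 0.04 ± 0.14 in EB (limma adjusted p = 0.847) and 0.13 ± 0.14 in ESC (limma adjusted p = 0.541), and the other tested Dgcr8 probe sets had ratios of 0.10 to 0.24. On the deposited scale the EB ratio of 1455311_at was 0.89 and was called (limma adjusted p = 1.15e-05), and the ESC ratio was -0.01.

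In total RNA Dgcr8 1455311_at read 9.15, 8.41 and 8.59 in EB, against 6.63, 7.14 and 7.06 in ESC, the largest deposited difference of the 21 probe sets (1.54 ± 0.21, limma adjusted p = 0.000132). Relative to all genes it was 0.30 ± 0.18 (limma adjusted p = 0.33). In pool 3 the same probe set was lower in EB by 1.92-fold relative to all genes (-0.94 ± 0.16, limma adjusted p = 0.00677) and in pool 4 by 1.52-fold (-0.60 ± 0.11, limma adjusted p = 0.0136), both with the sign reversed on the deposited scale (0.35 and 0.66). The first call was kept in 6 and the second in 3 of 6 fits without 1 replicate. Dgcr8 1435439_at pointed the same way in both pools without passing the test, at -0.38 and -0.34. Dgcr8 1422981_at lay near the lower limit of the values, with 8 ESC and 1 EB pool arrays at it, and was not called in any pool relative to all genes.

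Xpo5, the exporter of microRNA hairpins, lies at chr17:46202811-46243598. Its 1428560_at signal in total RNA was 8.62, 8.11 and 8.63 in EB, against 7.28, 7.17 and 7.17 in ESC, a difference of -0.15 ± 0.14 relative to all genes (limma adjusted p = 0.535) and of 1.09 ± 0.18 as deposited (limma adjusted p = 0.000365). The pool ratio of this probe set was 0.25 to 1.06 in the EB cultures, with a mean of 0.56 ± 0.15 (limma adjusted p = 0.0115), and 0.16 ± 0.15 in ESC (limma adjusted p = 0.493). The other probe set, 1451468_s_at, gave the opposite order, 0.36 ± 0.14 in EB (limma adjusted p = 0.0685) and 0.67 ± 0.14 in ESC (limma adjusted p = 0.00489). The signal of 1428560_at minus that of 1451468_s_at on the same array was lower in EB without overlap in all 4 pools. It was -0.33 to 0.38 in EB pool 1, against 1.06 to 2.52 in ESC pool 1. The 2.52 came from replicate 2, where 1451468_s_at read 2.93, the lower limit of that array. In total RNA the ranges overlapped (0.25 to 0.47 in EB, 0.29 to 0.70 in ESC). The Actb 3′ to 5′ ratio was lower in EB without overlap in all of these sources, total RNA among them. Its part in the difference between the probe sets was not tested. The difference of the pool ratio between states was 0.41 (95% interval -0.06 to 0.87) for the one and -0.30 (95% interval -0.74 to 0.14) for the other. Without EB replicate 3 the EB ratio of 1428560_at was 0.32 (limma adjusted p = 0.082), and without ESC replicate 2 the ESC ratio of 1451468_s_at was 0.57 (limma adjusted p = 0.0589). In pool 3, 1428560_at was lower in EB by 1.68-fold relative to all genes (-0.75 ± 0.12, limma adjusted p = 0.00561), kept in all 6 fits without 1 replicate and with the sign reversed on the deposited scale (0.51).

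Dicer1, the cytoplasmic nuclease, lies at chr12:104687740-104751968. Its 1427941_at signal in total RNA was 9.07, 8.67 and 9.25 in EB, against 8.03, 8.30 and 8.04 in ESC. Relative to all genes the difference was -0.48 ± 0.14 (limma adjusted p = 0.0876). In EB it read 5.96, 4.84 and 5.64 in pool 1, 7.99, 6.37 and 7.01 in pool 2, 9.08, 7.88 and 7.85 in pool 3, and 9.32, 9.05 and 9.07 in pool 4. In ESC it read 7.85, 5.77 and 6.0 in pool 1, 8.46, 7.56 and 8.63 in pool 2, 8.76, 7.66 and 8.25 in pool 3, and 8.33, 8.11 and 8.02 in pool 4. Each EB culture had a higher value in each pool than in the one before, as did ESC replicate 2, while ESC replicate 1 was highest in pool 3 and ESC replicate 3 in pool 2.

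Dicer1 1427941_at was lower in EB than in ESC in each pool relative to all genes: by 1.75-fold in pool 1 (limma adjusted p = 0.0164), 2.65-fold in pool 2 (limma adjusted p = 0.018), 2.40-fold in pool 3 (limma adjusted p = 0.00104) and 1.34-fold in pool 4 (limma adjusted p = 0.0404). The sign was the same on the deposited scale in pools 1 and 2, with no call (-0.74 and -0.93), and was reversed in pools 3 and 4 (0.05 and 0.92). The pool 3 call was kept in all 6 fits without 1 replicate (limma adjusted p 0.00556 to 0.0127), and the pool 4 call in none of them (limma adjusted p 0.0586 to 0.124). With the replicate number as a block the calls in pools 1 and 4 were lost (limma adjusted p = 0.0548 and 0.0786), with EB lower within each number in all 4 pools. The pool 1 and pool 2 calls were each kept in 2 of 6, and in pool 2 without ESC replicate 3 the value was -1.27 (limma adjusted p = 0.0851).

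The second Dicer1 probe set, 1460571_at, was called in no pool, with differences of -0.14, 0.13, -0.33 and 0.05 in pools 1 to 4 relative to all genes. The signal of 1427941_at minus that of 1460571_at on the same array was 0.35 to 1.91 in EB pool 2, against 2.29 to 5.21 in ESC pool 2, and 1.07 to 1.5 in EB pool 3, against 1.98 to 2.61 in ESC pool 3. In total RNA it was 0.85 to 1.59 in EB and 1.92 to 2.27 in ESC. The highest value, 5.21, was on the array of ESC pool 2 replicate 3. There 1427941_at read 8.63 and 1460571_at read 3.42, near the lower limit of that array, 3.35. That array also had the highest Actb 3′ to 5′ ratio of the series, 5.31. As for Lin28a, the call thus came from 1 of 2 probe sets, and the part of RNA quality was not tested.

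Relative to all genes, Dicer1 was on average at a higher level within pools 3 and 4 than within pools 1 and 2 in both states. The pool ratio of 1427941_at was 1.18 ± 0.12 in EB (limma adjusted p = 1.48e-05) and 0.81 ± 0.12 in ESC (limma adjusted p = 0.000435), with 1.05 to 1.36 in the EB cultures and 0.70 to 0.93 in the ESC cultures. The difference, 0.36 (95% interval 0.0017 to 0.72), had a limma adjusted p of 0.223. For 1460571_at the ratio was 0.45 ± 0.15 in EB and 0.49 ± 0.15 in ESC (limma adjusted p = 0.0316 and 0.0284). The EB value lost its call without EB replicate 1, 2 or 3 (limma adjusted p = 0.0961, 0.0772 and 0.121), and the ESC value without ESC replicate 2 or 3 (limma adjusted p = 0.216 and 0.164).

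Ago2, the slicer Argonaute, lies at chr15:73101625-73184947. Its 1426366_at signal in total RNA was 9.69, 9.61 and 9.69 in EB, against 8.41, 8.97 and 8.49 in ESC. The difference relative to all genes was -0.29 ± 0.15 (limma adjusted p = 0.271), and for the other 3 probe sets it was -0.25 to 0.04, with no call. All 4 deposited differences were between 0.98 and 1.24 and were called.

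Relative to all genes, Ago2 was on average at a higher level within pools 3 and 4 than within pools 1 and 2 in both states. Its 4 probe sets, read on the same arrays, followed one another closely (Pearson r of 0.91 to 0.98 between group means, n = 10 groups). The 1455389_s_at signal was 6.59, 5.63 and 5.81 in EB pool 1, 8.69, 6.99 and 7.09 in EB pool 2, 10.12, 8.53 and 8.79 in EB pool 3, and 10.24, 9.21 and 9.71 in EB pool 4. In ESC it was 6.88, 5.50 and 5.21 in pool 1, 8.15, 7.20 and 7.85 in pool 2, 8.85, 7.47 and 8.11 in pool 3, and 8.74, 8.51 and 8.08 in pool 4. The lowest mean was in pool 1 and the highest in pool 4 in both states. Its pool ratio was 1.43 ± 0.13 in EB (limma adjusted p = 6.31e-06) and 1.38 ± 0.13 in ESC (limma adjusted p = 2.72e-05), and the difference was 0.05 (95% interval -0.34 to 0.44).

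For Ago2 1426366_at, which has the highest mean of the 4, the pool ratio was 0.88 to 1.44 in the EB cultures, with a mean of 1.17 ± 0.24 (limma adjusted p = 0.00236). In ESC it was 1.59, 0.12 and 0.10 with a mean of 0.60 ± 0.24 (limma adjusted p = 0.0854). The 2 low ESC ratios belonged to cultures in which this probe set read 6.72 (pool 3, replicate 2) and 6.29 (pool 4, replicate 3), the same arrays as the low Trim71 and Igf2bp1 values. On them 1455389_s_at read 7.47 and 8.08. In pool 3, Ago2 1435636_at and 1455294_at were lower in EB relative to all genes, by 1.42-fold (limma adjusted p = 0.0492) and 1.57-fold (limma adjusted p = 0.018), with the sign reversed on the deposited scale and each kept in 1 of 6 fits without 1 replicate.

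**Figure D2:**
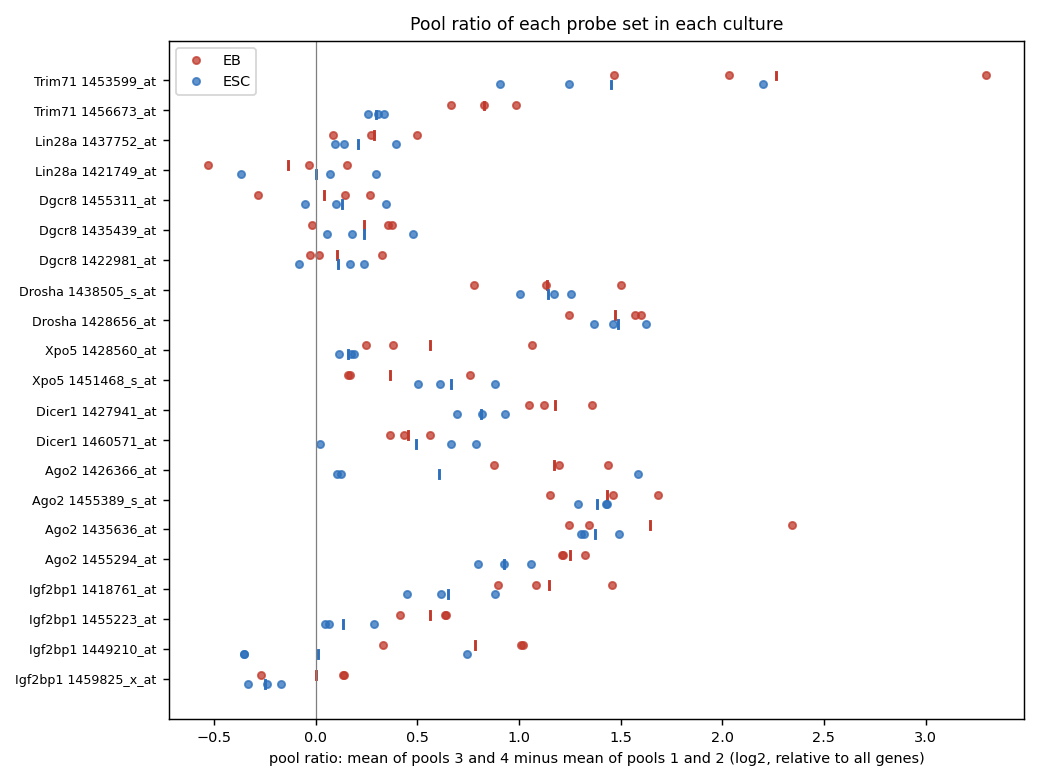
Pool ratio (horizontal axis: mean over pools 3 and 4 less mean over pools 1 and 2, log2, relative to all genes) of the 21 probe sets; each point is 1 culture and each short bar the mean of the 3 EB (red, upper) or 3 ESC (blue, lower) cultures. Drosha and Ago2 1455389_s_at sit between 0.78 and 1.69 in every culture of both states, while the Lin28a and Dgcr8 probe sets lie between -0.53 and 0.50.

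Over the 21 probe sets the pool ratio was above 0 and called for 14 in EB, where 20.2% of all 27022 probe sets were called higher, and for 10 in ESC, where 13.3% were. None was below 0 and called in EB, where 14.7% of all probe sets were, or in ESC, where 12.4% were. The called EB probe sets belonged to 6 genes, all but Lin28a and Dgcr8. On the deposited scale 20 were called higher in EB, where 52.1% of all were, and 8 in ESC, where 5.01% were; all 14 EB calls and 8 of the 10 ESC calls were made on both scales. The 2 ESC calls lost there were Xpo5 1451468_s_at (0.36, limma adjusted p = 0.135) and Dicer1 1460571_at (0.36, limma adjusted p = 0.141). Without EB replicate 3, 11 probe sets were called in EB, and without 1 ESC replicate 8 or 9 were called in ESC. The median pool ratio of the 21 was 0.79 in EB and 0.49 in ESC relative to all genes, beside 0.03 in EB and -0.03 in ESC over all probe sets. The Actb 3′ to 5′ ratio also differed between the pools of a state. In EB pools 1 to 4 it was 1.82 to 2.98, 1.13 to 2.22, 0.62 to 1.67 and 0.46 to 1.01. In ESC pools 1 to 4 it was 3.87 to 4.22, 3.07 to 5.31, 1.69 to 3.59 and 1.34 to 3.54. Its part in the pool ratios was not tested.

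A factor common to all probe sets of an array drops out, apart from the offset of 32, when the ratio of 1 probe set is taken minus that of another in the same culture. The deposited pool ratio minus that of Lin28a 1437752_at was above 0 in 6 of 6 cultures for both Drosha and both Trim71 probe sets, all 4 Ago2 probe sets, Dicer1 1427941_at and Igf2bp1 1418761_at. For Drosha 1428656_at it was 1.15, 0.94 and 1.07 in the EB cultures, against 1.28, 1.14 and 1.42 in the ESC cultures. For Dgcr8 1455311_at it was 0.18, -0.90 and -0.41 in the EB cultures, against -0.31, 0.23 and 0.06 in the ESC cultures. The ratios of both Drosha probe sets were thus above that of Lin28a 1437752_at in every culture. That of Dgcr8 1455311_at was above it in 3 of 6, and those of Dgcr8 1435439_at and 1422981_at in 2 of 6 each. The other Lin28a probe set was not used as a reference.

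No probe set of the 8 genes was called for a difference of the pool ratio between states relative to all genes, where 2.27% of all probe sets were called higher and 2.99% lower. Other settings did call some, each higher in EB: Ago2 1426366_at and Igf2bp1 1449210_at without ESC replicate 1 (1.04 and 1.13, limma adjusted p = 0.0463 and 0.0475), Igf2bp1 1449210_at with arrays scaled before the offset (0.95, limma adjusted p = 0.0305), Trim71 1456673_at with an offset of 64 (0.46, limma adjusted p = 0.0364) and 8 probe sets with each array centred on its median. At an unadjusted p under 0.05 there were 5 of the 21, beside 6002 of the 27022. The median of the 21 differences was 0.25, beside 0.04 over all probe sets. On the deposited scale 20 were called higher in EB, where 54.9% of all probe sets were, with a median of 1.18 beside 0.61 over all. The exception was Dgcr8 1422981_at (0.17, limma adjusted p = 0.55), which lay near the lower limit of the values.

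In total RNA relative to all genes, 2 of the 21 were called lower in EB and none higher, where 3.35% of all probe sets were called lower and 4.36% higher. With the replicate number as a block neither was called. The median over the 21 was -0.02, beside 0.03 over all. On the deposited scale 20 were called higher, where 73.3% of all were, with a median of 1.11 beside 0.86 over all. The called genes on the relative scale, Lin28a and Igf2bp1, each had another probe set with a difference near 0 or above it.

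In the separate pools, calls relative to all genes were mostly lower in EB. In pool 1, 5 of the 21 were lower, where 4.87% of all probe sets were (4.91% were higher), from Trim71, Lin28a, Dicer1 and Igf2bp1; with the replicate number as a block none of these 5 was called (limma adjusted p 0.0548 to 0.125), though EB was lower within each number for all 5. In pool 2, 2 were lower, where 1.95% were (1.75% were higher), from Dicer1 and Igf2bp1. In pool 3, 7 were lower, where 7.3% were (8.43% were higher), from Trim71, Dgcr8, Xpo5, Dicer1, Ago2 and Igf2bp1. In pool 4, 2 were lower, where 10.6% were, from Dgcr8 and Dicer1, and 1 was higher, where 12.8% were. The block kept both calls of pool 2, all 7 lower calls of pool 3 and, in pool 4, those of Dgcr8 and Igf2bp1, and it added Lin28a 1421749_at as higher in EB in pool 3 (0.82, limma adjusted p = 0.0118). None of the lower calls was made on the deposited scale, where 0 of the 21 were called in pool 1, and 1, 8 and 21 were called higher in pools 2, 3 and 4; of all probe sets 0, 2.53%, 46.1% and 69.3% were.

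Igf2bp1 1455223_at was called lower in 3 pools, and Dicer1 1427941_at in 4; no other probe set of the 21 was called in more than 2. Igf2bp1 1455223_at read 7.29 to 8.46 in EB pool 1, against 7.67 to 9.32 in ESC pool 1, and 8.15 to 8.98 in EB pool 2, against 8.93 to 9.77 in ESC pool 2. Its relative difference was -0.48 in pool 1 (limma adjusted p = 0.0378), -1.20 in pool 2 (limma adjusted p = 0.0148) and -0.72 in pool 3 (limma adjusted p = 0.0137). With the replicate number as a block the pool 1 call was lost (limma adjusted p = 0.112). The calls were kept in 1, 1 and 5 of 6 fits without 1 replicate; in pool 3 the call was lost without EB replicate 2 (limma adjusted p = 0.0651). Its offset to 1418761_at moved as well: 1418761_at minus 1455223_at was 0.82 to 1.21 in EB pool 2, against -0.06 to 0.02 in ESC pool 2, and was higher in EB without overlap in all 4 pools and in total RNA.

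**Figure D3:**
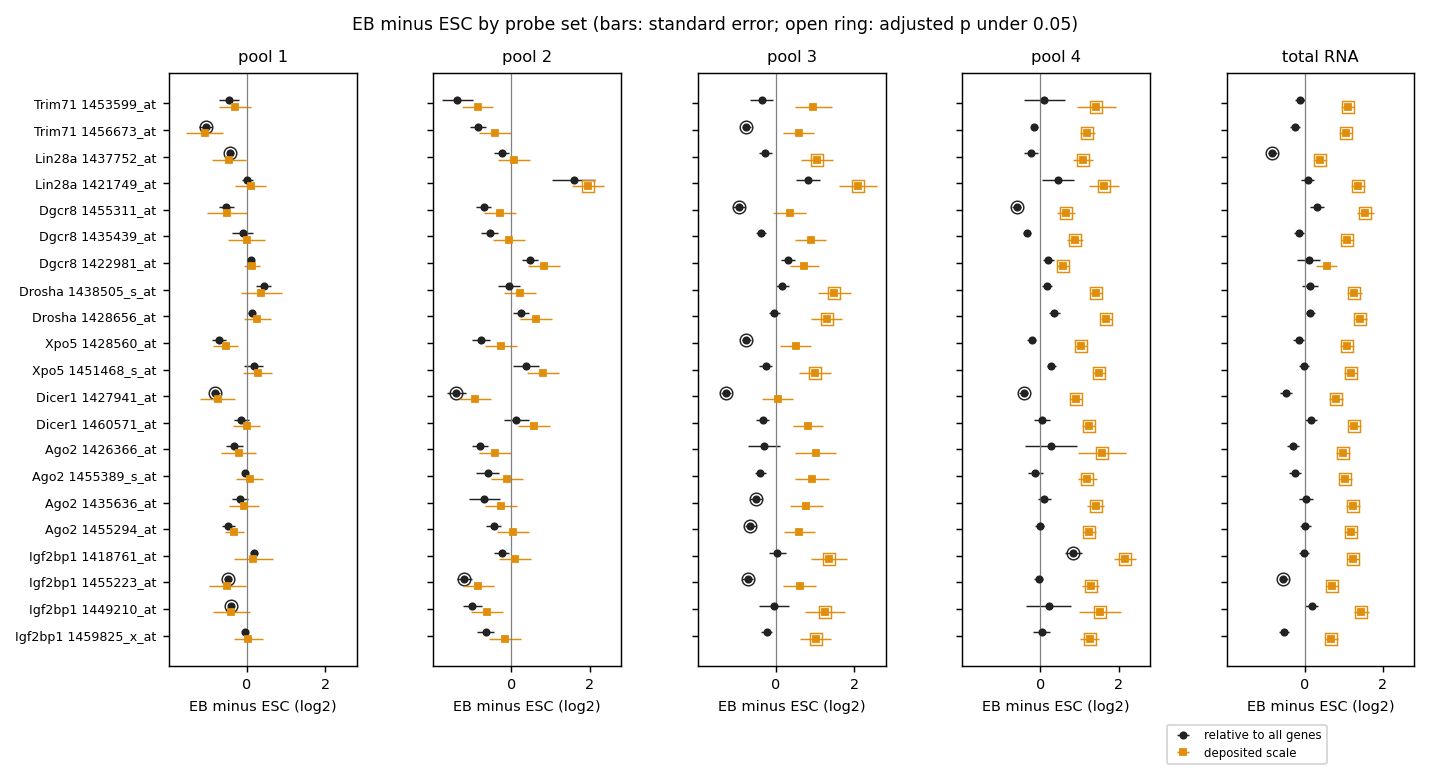
EB minus ESC (horizontal axis, log2) for each of the 21 probe sets in pools 1 to 4 and total RNA, relative to all genes (black circles) and on the deposited scale (orange squares), with standard errors as bars and a ring where the adjusted p is under 0.05. The deposited values in pool 4 and total RNA lie to the right of 0 for all 21 probe sets, while the relative values lie on both sides of it.

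Probe sets of 1 gene could differ in their profile over the 10 group means. The correlation was -0.18 between the Lin28a probe sets, 0.32 for Xpo5, 0.61 for both Trim71 and Dicer1, and 0.93 for Drosha (Pearson r, 10 groups). Among Igf2bp1 probe sets it ran from -0.29 to 0.77. Among the tested Dgcr8 probe sets it ran from -0.74, between 1455311_at and 1422981_at, to 0.76, and 1422981_at lay near the lower limit of the values. Differences between probe sets of a gene are free of array-wide scaling. They were taken only between the probe set with the highest mean and the next highest, and other pairs were not compared. For Lin28a, Xpo5, Dicer1 and Igf2bp1 these differences separated EB from ESC in at least 4 of the 5 RNA sources. For Trim71 and Ago2 they did so in 0 of 5, and for Dgcr8 in 1, pool 3. For Drosha they did so in 1, pool 4. In pools 1 to 3 and in total RNA the Drosha ranges overlapped, with 1438505_s_at minus 1428656_at at 1.64 to 2.38 in EB total RNA, against 1.84 to 2.38 in ESC total RNA.

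**Figure D4:**
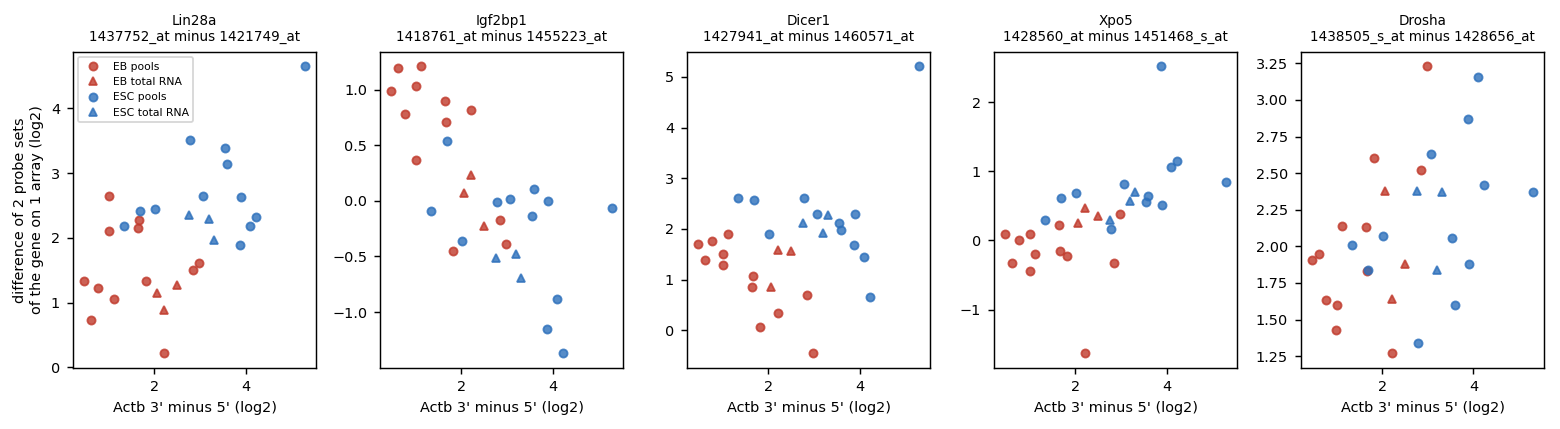
Signal of one probe set minus that of another of the same gene on each of 30 arrays (vertical axis, log2) against the Actb 3′ to 5′ ratio of the array (horizontal axis, log2) for Lin28a, Igf2bp1, Dicer1, Xpo5 and Drosha; EB are red and ESC blue, circles are pools and triangles total RNA. The EB arrays lie at 0.46 to 2.98 on the horizontal axis and the ESC arrays at 1.34 to 5.31, and the point at 5.31 is ESC pool 2 replicate 3.

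Levels in the 10 groups were ordered after quantile normalization of all 30 arrays. Trim71 1453599_at was highest in EB pool 4 (9.99 ± 0.87), followed by ESC pool 4 (9.88 ± 0.86), ESC total RNA (9.65 ± 0.10), EB total RNA (9.53 ± 0.11), ESC pool 3 (9.45 ± 0.65) and EB pool 3 (9.08 ± 0.18) (log2, mean ± SD, n = 3 each). Neighbours among these 6 overlapped. The last of them did not overlap ESC pool 2 (8.55 ± 0.16), which was followed by ESC pool 1 (7.88 ± 0.20), EB pool 1 (7.29 ± 0.66) and EB pool 2 (7.26 ± 0.86), and these 3 overlapped. Lin28a 1437752_at was highest in ESC pool 3 (10.17 ± 0.20) and ESC total RNA (10.05 ± 0.05), which overlapped, and lowest in EB total RNA (9.22 ± 0.10) and EB pool 1 (9.15 ± 0.08), which overlapped too.

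For correlations between genes, each gene was read by its probe set with the highest mean only. Another probe set of the gene can have another profile: r within a gene was 0.61 for Trim71, 0.32 for Xpo5 and -0.18 for Lin28a. Of the 28 pairs among the 8 genes, Trim71 and Ago2 had the highest correlation over the 10 group means (r = 0.96). Their probe sets, 1453599_at and 1426366_at, were both low on ESC pool 3 replicate 2 and ESC pool 4 replicate 3, and the part of these arrays was not tested. Xpo5 and Dicer1 followed (r = 0.92). Dgcr8 and Igf2bp1 had the lowest (r = -0.11), and the microprocessor partners Dgcr8 and Drosha had r = 0.10. Among 13250 genes, those with the profile most like Trim71 were Fbxw7, Rbm28, Uqcrc1, Gtf2f1 and Patj (r of 0.97 to 0.98), where 5% of all genes had r above 0.85. For Lin28a they were Pck2, Pdlim2, Ccdc106, Mef2b and Stap2 (r of 0.92 to 0.94), where 5% had r above 0.66. These are descriptions over 10 group means, and the genes compared were read on the same arrays.

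Other genes of the pathway were read from 5 lists, each gene by its probe set with the highest mean. Among such probe sets 4.52% were called higher and 4.17% lower in EB total RNA relative to all genes, and 2.42% higher and 3.57% lower for the pool ratio. Of 14 cofactors of the microprocessor, export and dicing, none was called in total RNA, and the RNA helicase Ddx17 had a higher pool ratio in EB (0.74 ± 0.17, limma adjusted p = 0.0319). Of 27 Argonaute, GW182 and other silencing genes, none was called in total RNA, and the P-body helicase Ddx6 (1.04 ± 0.19, limma adjusted p = 0.0158) and the poly(A)-binding protein Pabpc1 (0.71 ± 0.18, limma adjusted p = 0.0419) had higher pool ratios in EB. All 3 were also higher on the deposited scale.

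Of 18 genes around LIN28 and let-7, the transcription factor Myc was lower in EB total RNA (-1.20 ± 0.19, limma adjusted p = 0.0165, deposited -0.13 without a call). The pool ratio was higher in EB for 4 of them: the phosphatase Cdc25a (0.90 ± 0.16), the transcription factor Mycn (0.78 ± 0.16), the RNA-binding Syncrip (0.78 ± 0.19) and the kinase Map4k4 (0.60 ± 0.16), with limma adjusted p of 0.014, 0.0234, 0.0375 and 0.0477. These were called on the deposited scale too. The median pool ratio difference of the 18 was 0.22, beside 0.04 over all genes.

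Of 9 mRNAs linked to TRIM71 or encoding related TRIM proteins, the zinc-finger factor Egr1 was higher in EB total RNA (0.73 ± 0.12, limma adjusted p = 0.0177) and Trim2, a TRIM-NHL ligase, lower (-1.31 ± 0.14, limma adjusted p = 0.00649, deposited -0.08 without a call). Shcbp1 had a higher pool ratio in EB (0.73 ± 0.16, limma adjusted p = 0.0275). Of 7 transcripts that host microRNAs, the imprinted noncoding RNAs Rian (-1.21 ± 0.22, limma adjusted p = 0.0227) and Meg3 (-0.97 ± 0.15, limma adjusted p = 0.0147) were lower in EB total RNA, without a call on the deposited scale, where Rian was at -0.26 and Meg3 at 0.29. Meg3 also had a lower pool ratio in EB (-0.82 ± 0.19, limma adjusted p = 0.0351), with a deposited value of 0.38 that was not called. On the deposited scale 13 of 14, 27 of 27, 15 of 18, 8 of 9 and 3 of 7 genes of the 5 lists were called higher in total RNA, where 77.9% of all genes were, and 14 of 14, 25 of 27, 18 of 18, 9 of 9 and 3 of 7 had a higher pool ratio, where 62.7% of all genes had. With the replicate number as a block, none of the 5 total RNA calls of these lists passed the test (Myc, Egr1, Trim2, Rian and Meg3, limma adjusted p 0.0523 to 0.0767), nor did the pool ratio of Map4k4 (limma adjusted p = 0.0636); the other 8 pool ratio calls did.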

How the data were processed

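Per the submitters' processing notes, the deposited values came from MAS5 and affy, with versions, roles and settings not given in the sources used here. The authors deposited log2 signals for 45101 probe sets on 30 arrays. The 24 spike-in control probe sets averaged 9.43 to 9.78 on every array, and pool arrays had a lower limit at which 18.3% to 59.1% of probe sets lay.

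Probe sets were named from the platform annotation: 34945 had 1 symbol, 932 several, 9160 none, and 64 were controls. From the deposited log2 values, log2(linear signal + 32) was computed and quantile normalized over the arrays of a fit. Controls and the lowest 40% by mean were dropped, leaving 27022 probe sets. Tests were two-sided and made in R 4.3.3 by limma 3.58.1 (eBayes after lmFit); p-values were adjusted by the method of Benjamini and Hochberg across the fitted probe sets, and a probe set with an adjusted value under 0.05 is called. Errors are SE unless stated, and fold changes on this offset scale understate changes of low signals. EB and ESC ratios shared 1 fit. The script was tested on simulated data.

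The genes and lists were chosen with earlier results of these data known. Every probe set of the 8 genes is described, the one with the highest mean standing for the gene; of the other lists up to 3 called genes in each direction are named, and the fourth in the let-7 list was added after its values were seen. The 3 arrays of a group limit the precision, and p-values measure the spread between these samples. Replicate numbers were not a term of the main fits; pool arrays of one number shared their lowest value across states, so block results are given where they change a call. Alternatives were the scale, offset, filter, probe choice, variance model, a replicate block and leaving out each replicate.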

Additional observations from a re-analysis of the deposited data

How the results depend on the processing

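Of 2374 values under alternatives, 120 lost and 106 gained a call with the sign unchanged. Another 44 reversed, meaning that the sign changed and the main or the alternative fit called the value. The other 2104 kept their side of the threshold, and changes of sign among uncalled values are counted with them. Precision is limited by 3 arrays a group and by pool arrays with 18.3% to 59.1% of probe sets at the lower limit. No cause of a change was tested.

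Without normalization, on the deposited scale, the reversed values in total RNA were 1.11 and 1.05 (Trim71), 0.40 (Lin28a), 1.08 (Dgcr8), 1.09 and 1.18 (Xpo5), 0.80 (Dicer1), 0.98 and 1.04 (Ago2), and 1.25, 0.70 and 0.68 (Igf2bp1). For the EB minus ESC pool ratio they were 0.84 (Lin28a), 0.90 (Dgcr8), 1.16 and 1.04 (Drosha), 0.71 (Xpo5) and 0.74 (Dicer1). In pool 3 they were 0.58 (Trim71), 1.05 (Lin28a), 0.35 (Dgcr8), 1.3 (Drosha), 0.51 and 0.99 (Xpo5), 0.045 (Dicer1), 0.78 and 0.60 (Ago2), and 0.61, 1.26 and 1.02 (Igf2bp1). In pool 4 they were 1.20 (Trim71), 1.10 (Lin28a), 0.66 and 0.89 (Dgcr8), 1.04 (Xpo5), 0.92 (Dicer1), 1.20 and 1.25 (Ago2), and 1.28 (Igf2bp1). Within EB they were 0.77 (Lin28a) and 0.85 (Igf2bp1). Median centring gave the reversed values 0.019 (Dicer1) and 0.36 (Ago2) in pool 4 and 0.38 (Igf2bp1) within EB.

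Counts of calls are out of 27022 tested probe sets, except 45037 with no filter and 13250 with 1 probe set a gene. In those settings the share called can move otherwise than the count. The count of called probe sets, 2083 in total RNA, became 19867 on the deposited scale (99.7% higher, against 56.6%). It became 6894 with median centring, 1042 with no filter and 4408 with a trended, robust eBayes. For the pool ratio, 1422 became 14900 (99.6% higher, against 43.2%), 8412 with median centring, 252 and 2543 with offsets of 16 and 64, and 943 with no filter. In pool 1, 2643 became 0 as deposited, 685 with median centring, 1358 with no filter and 1683 with 1 probe set a gene. In pool 2, 1000 became 627 with median centring, 467 and 2026 with offsets of 16 and 64, and 2411 with the trended eBayes, and the deposited share of higher calls was 92.2%, against 47.3%. In pool 3, 4252 became 12478 as deposited (99.9% higher, against 53.6%), 9282 with median centring (37.1%) and 2819 with 1 probe set a gene. In pool 4, 6305 became 18802 (99.6% higher, against 54.8%), 16416 (37.3%) and 3847 under the same settings. Within EB, 9435 became 15376 (91.6% higher, against 58%), 16339 and 5374. Within ESC, 6924 became 4291 with 1 probe set a gene, and the deposited share of higher calls was 24.7%, against 51.8%. With arrays scaled before the offset the share of higher calls was 24.9%, 21.9%, 35.3% and 33.1% in pools 1 to 4 and 57.9% for the pool ratio. For the pool ratio difference 8 of the 21 probe sets were called under median centring, 2 without ESC replicate 1, and 1 each with arrays scaled before the offset and with an offset of 64, all higher in EB.

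Leaving out 1 replicate gave 369 to 1010 calls in total RNA, 0 to 927 for the pool ratio, 856 to 1707, 35 to 1362, 1793 to 3550 and 3940 to 5237 in pools 1 to 4, 7410 to 9300 within EB and 4246 to 7887 within ESC.

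With the replicate number as a block there were 43 calls in total RNA, 1369 for the pool ratio and 667, 594, 4039 and 5399 in pools 1 to 4. Of the 21 probe sets it left none called in total RNA or pool 1, 2 lower in pool 2, 1 higher and 7 lower in pool 3, and 1 higher and 1 lower in pool 4. Deviations of same-numbered samples correlated at -0.02 to 0.39 relative to all genes, never over 0.1 in all 3 pairs, and on the deposited scale all 3 were over 0.1 in pools 1, 2 and 3. No block could be fitted within a state.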
